A study of Arabidopsis thaliana with 12 samples.

Results

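The er erl2 double mutant of Arabidopsis thaliana was compared with wild type across all genes, with emphasis on hormone, cell wall, defence, transport and transcription factor families. The comparison used 6 of the 12 libraries of the series, the 3 labelled er erl2 and the 3 labelled wild type, and no measured value entered that choice. Wild type was the Columbia-0 (Col-0) ecotype. The double mutant carried er-105 and erl2-1, alleles of the receptor kinase genes ERECTA (ER) and ERECTA-LIKE 2 (ERL2), in a single line from laboratory stocks. Both genotypes were 3 weeks old and came from long days, and poly(A) RNA was sequenced from hypocotyls together with the top 5 mm of root. The labels call the 3 libraries of a genotype biological replicates and give neither the number of plants in a library nor the time of day. The other 6 libraries came from the triple mutant of the PXY receptor family, which carries pxy-3, pxl1-1 and pxl2-1, and from the quintuple mutant that carries all 5 mutations. They entered the estimate of the spread and, where named, served as another background for the same mutations.

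ERECTA family proteins are leucine-rich repeat receptor kinases of the plasma membrane that perceive small secreted EPF and EPFL peptides and signal through a MAP kinase cascade. They are best known for their part in stomatal patterning, inflorescence architecture and organ growth. In the hypocotyl they act with the CLE41/CLE44 receptor PXY in radial growth, where the vascular cambium forms xylem on one side and phloem on the other.

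The libraries held between 10507590 and 12260181 counted reads in genes, and 19236 genes passed the filter on low counts and were tested. Over log-scaled gene levels, libraries of one genotype correlated at 0.983 to 0.988 and libraries of different genotypes at 0.945 to 0.952. Of the listed cell type markers, all 17 cambium markers and 20 of 21 xylem markers exceeded 1 CPM on average, where CPM is the count scaled to library size. Only 2 of 22 root hair markers and 3 of 9 root tip markers did so, and 7 of 18 seed markers had no count in any library. Values below are CPM in the order of replicates 1, 2 and 3. Log2 fold changes (er erl2 against wild type), their standard errors (SE) and adjusted p-values come from edgeR's quasi-likelihood test with Benjamini-Hochberg adjustment over all tested genes, and a gene was called at an adjusted p under 0.05.

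ER stood at 39.6, 42.7 and 32.6 CPM in wild type and at 8.66, 8.54 and 11.5 CPM in er erl2. The groups did not overlap, and the change was 4.01-fold (log2 fold change -2.00, SE 0.15, adjusted p = 1.22e-06). ERL2 was near the detection limit in both groups, with 16 reads over the wild-type libraries and 14 over the er erl2 libraries. The ratio of 0.814 had a 95% counting interval of 0.368 to 1.78, so a change of ERL2 was not detectable at this depth. ERL1, the remaining member of the family, had 1 read over the wild-type libraries and 73 over the er erl2 libraries, a ratio of 67.9 with a 95% counting interval of 11.8 to 2720.

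Of the 19236 genes tested, 3607 (18.8%) differed between er erl2 and wild type, 1983 higher (10.3%) and 1624 lower (8.44%). Most changes were modest. The median absolute log2 fold change of the called genes was 0.59, and 958 of them (26.6%) changed at least 2-fold. The largest changes ran mainly downward: 210 genes (1.09% of those tested) changed at least 8-fold, 74 higher and 136 lower. There were 55 called genes without a read in er erl2 and 14 without a read in wild type. CPM values of the groups did not overlap for 7280 genes (37.8%), of which 3549 were called. A threshold at a 2-fold minimum change kept 319 genes, 123 higher and 196 lower. The majority also turned to lower calls when the 6 libraries were fitted alone (1642 higher, 1872 lower), with a replicate block in that fit (1369 and 1590) and without er erl2 replicate 3 (1276 and 1302).

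**Figure D1:**
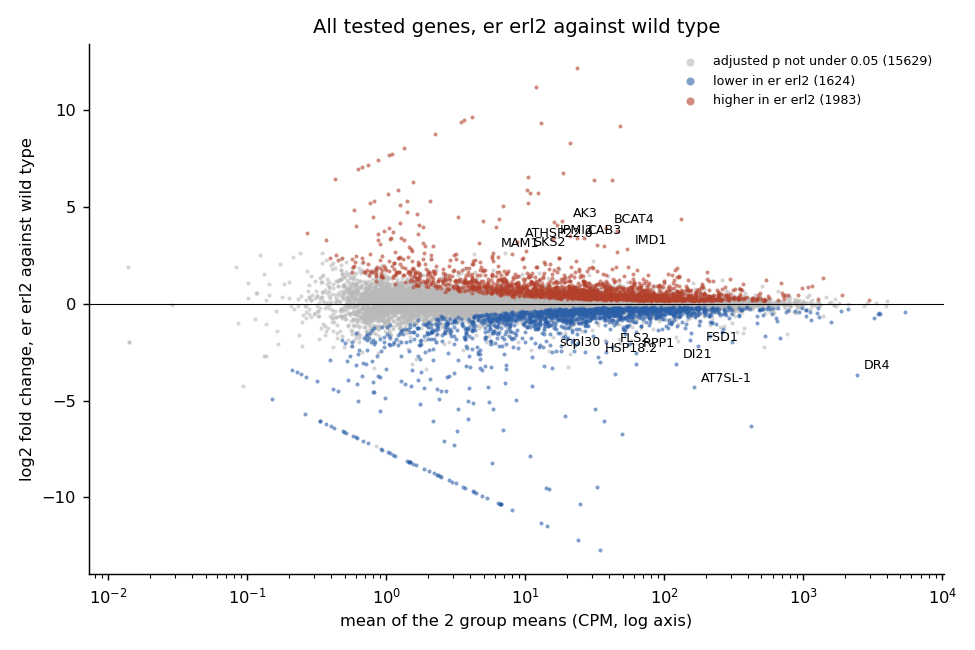
Log2 fold change of er erl2 against wild type (y axis) against the mean of both group means in CPM (x axis, log scale) for the 19236 tested genes, each a point, red where higher, blue where lower and grey where not called. The 16 named genes are those with the 8 largest rises and the 8 largest falls outside the chromosomal runs among genes with a symbol, a mean of at least 5 CPM over the 6 libraries and at least 0.5 CPM in both groups, and DR4 stands out as a highly expressed gene with a log2 fold change of -3.66; slanted lines of points at the far top and bottom are genes without a read in one group.

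The strongest changes were not spread evenly over the genome. Windows of 100 neighbouring tested genes with at least 8 genes changed 8-fold joined into 4 runs, 1 each on chromosomes 3 and 4 and 2 on chromosome 5. The runs held 925 genes (4.81% of those tested) but 87 of the 210 genes changed at least 8-fold (41.4%). On chromosome 3 the run from AT3G27940 to AT3G44326 held 185 tested genes with 20 higher and 46 lower, and on chromosome 4 the run from AT4G12890 to AT4G13860 held 71 with 15 higher and 22 lower. On chromosome 5 the run from AT5G25390 to AT5G40380 was the longest, with 488 tested genes of which 80 were higher and 106 lower, and the run from AT5G42965 to AT5G45220 held 181 with 23 higher and 55 lower. Outside the runs 3240 of 18311 genes were called (17.7%), 10.1% higher and 7.62% lower. Effects of the mutated receptors and other sequence or linkage differences between the er erl2 line and Col-0 cannot be told apart within these libraries. Genes inside a run are marked as such below, but the limit also applies outside the runs. Some named genes outside them lie near one another, such as PEPR1 (AT1G73080), DR4 (AT1G73330) and MKK9 (AT1G73500). UMAMIT29 (AT4G01430), NAC069 (AT4G01550) and EXPA17 (AT4G01630) are another such group.

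Genes without a read in one group gave the run genes their extreme values. AT3G27990 stood at 16.4, 16.1 and 15.8 CPM in wild type and had no read in er erl2, at least 192-fold lower when er erl2 is set at a floor of 3 reads over the group. AT5G44572 showed 11.2, 13.3 and 15.1 CPM against no read (at least 158-fold lower). AT4G12990 went from 9.01, 7.75 and 8.41 CPM to no read (at least 100-fold lower). The annotation gives none of them a described product. In the opposite direction UNE15, annotated as a late embryogenesis abundant protein, had no read in wild type and 0.825, 1.301 and 0.439 CPM in the double mutant, a rise of at least 9.61-fold. The quintuple mutant was called lower than the triple mutant in AT4G12990 (log2 fold change -7.77, adjusted p = 9.84e-07) and not called for AT3G27990 or AT5G44572. Of the 8 genes changed 8-fold in the chromosome 4 run, 7 were called in the same direction in the quintuple against the triple mutant. On chromosome 3 none of 12 did so, and in the chromosome 5 runs 1 of 45 and 2 of 22. Outside the runs it held for 49 of the 123 genes changed at least 8-fold.

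**Figure D2:**
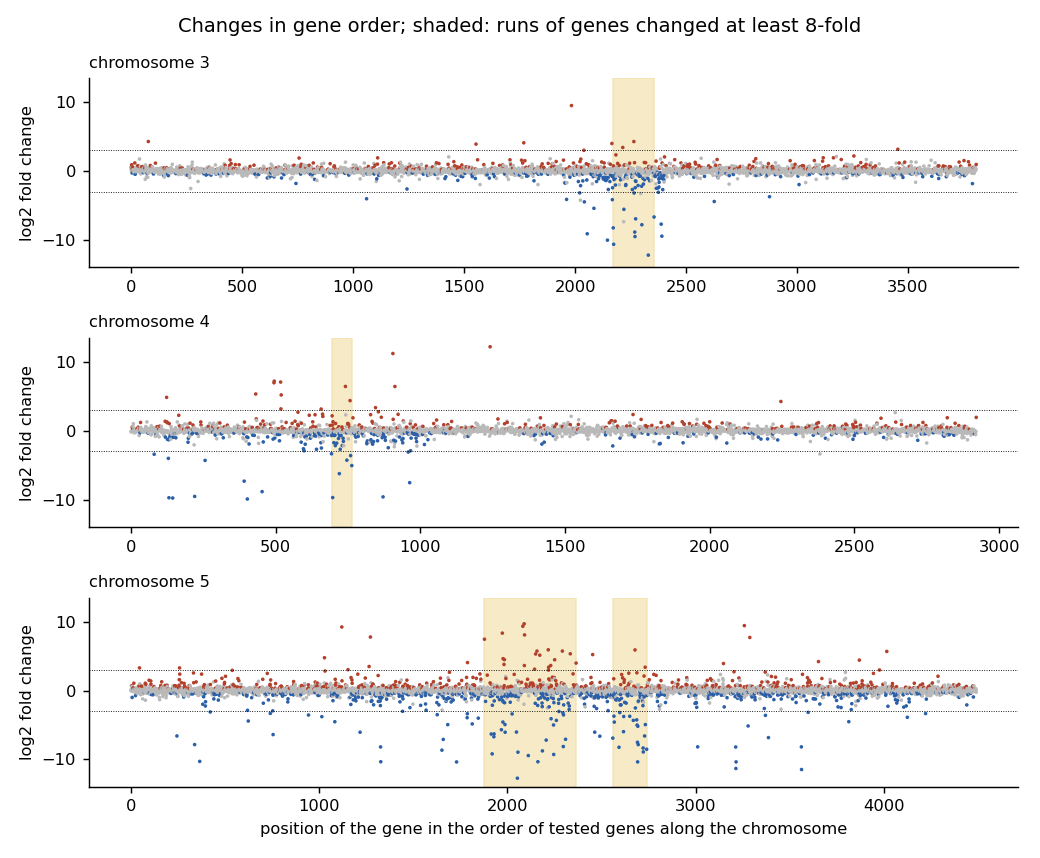
Log2 fold change of er erl2 against wild type (y axis) of tested genes in their order along chromosomes 3, 4 and 5 (x axis, rank of the gene), each a point, red where higher, blue where lower and grey where not called; dotted lines mark an 8-fold change. The 4 shaded runs hold 87 of the 210 genes changed at least 8-fold.

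Intracellular immune receptors of the nucleotide-binding leucine-rich repeat (NLR) family, which detect pathogen effectors and trigger cell death, held many genes that were lower in er erl2. Of 119 tested members, 36 were lower (30.3%) and 9 higher, against 8.44% lower among all tested genes, and the median log2 fold change was -0.21 against 0.021. This list was built from product names. A shorter list of NLR genes, built from gene names, moved both ways, with 5 higher and 7 lower of 26 tested and a median of -0.081. Outside the runs the shorter list had 4 higher and 5 lower. The values that follow are for the longer list. The summed level of the tested members was 1742 to 1802 CPM in the wild-type libraries and 1141 to 1243 CPM in the er erl2 libraries. In the runs 10 of 15 members were lower, and outside them 26 of 104 (25.0%). Of the family, 26 members were lower by at least 2-fold, 14 by at least 8-fold, and 7 had no read in er erl2 while none lacked reads in wild type. Many NLR genes have close copies, and sequence differences between a line and the reference can move reads away from a gene; their part in these values was not tested.

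Several named NLR genes lay outside the runs. DAR4 and CSA1 are neighbours on chromosome 5 that encode a paired receptor. DAR4 stood at 51.2, 47.3 and 49.3 CPM in wild type and at 0.0825, 0 and 0 CPM in er erl2, which is 1639 reads against 1 (ratio 1760, 95% counting interval 316 to 69700). CSA1 went from 2.94, 2.74 and 3.14 CPM to no read, at least 35.1-fold lower. AT5G51630 fell from 12.9, 13.0 and 13.9 CPM to no read (at least 158-fold lower), and its near neighbour AT5G51610, annotated as a ribosomal protein of the L11 family, from 3.98, 2.55 and 2.38 CPM to no read (at least 35.1-fold lower). AT5G05400 fell from 13.1, 11.6 and 13.2 CPM to no read, at least 151-fold lower, and in a run AT5G36930 fell from 13.2, 11.7 and 14.4 CPM to no read, at least 156-fold lower. RPP1 (AT3G44480), known for resistance to downy mildew, lies just past the end of the chromosome 3 run at AT3G44326. It remained expressed but dropped from 104, 107 and 108 CPM to 18.8, 18.22 and 18.7 CPM (log2 fold change -2.52, SE 0.054, adjusted p = 5.92e-12). Against that direction, RLM3 rose from 3.70, 3.19 and 1.95 CPM to 9.49, 8.46 and 7.90 CPM (log2 fold change 1.55, SE 0.29, adjusted p = 0.00276).

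The most strongly changed genes with a symbol outside the runs, with a mean of at least 5 CPM over the 6 libraries and at least 0.5 CPM in both groups, formed a short set of 8 rises and 8 falls. Among the falls, DR4, annotated as drought-repressed 4, was the most abundant. It stood at 4460, 4570 and 4450 CPM in wild type and at 409, 372 and 289 CPM in er erl2 (log2 fold change -3.66, SE 0.13, adjusted p = 1.29e-09). Every wild-type library lay far above every er erl2 library. AT7SL-1, an RNA of the signal recognition particle that guides secreted proteins to the endoplasmic reticulum, dropped from 307, 302 and 323 CPM to 17.2, 16.9 and 12.9 CPM (log2 fold change -4.30, SE 0.14, adjusted p = 1.29e-09). Other copies of this RNA exist and may share reads with it. DI21, annotated as drought-induced 21, went from 205, 215 and 226 CPM to 26.2, 22.4 and 27.2 CPM (log2 fold change -3.09, SE 0.23, adjusted p = 1.05e-05). The small heat shock protein gene HSP18.2 dropped from 56.6, 64.6 and 51.9 CPM to 8.99, 7.56 and 8.78 CPM (log2 fold change -2.77, SE 0.16, adjusted p = 2.80e-07). In AT5G63580 the symbol FLS2 stands for flavonol synthase 2, not for the flagellin receptor, and its level went from 67.4, 70.6 and 71.6 CPM to 16.01, 16.3 and 12.1 CPM (log2 fold change -2.23, SE 0.13, adjusted p = 1.51e-07). The groups did not overlap in any of these genes. The calls of scpl30, FSD1 and ATHSP22.0 were lost in some fits. FSD1 missed the threshold when the 6 libraries were fitted alone with a replicate block (adjusted p = 0.112), and ATHSP22.0 when they were fitted alone (adjusted p = 0.075). The gene scpl30 had an adjusted p of 0.0208 and missed the threshold without er erl2 replicate 2 (0.0715), er erl2 replicate 3 (0.0631), wild type replicate 2 (0.058) or wild type replicate 3 (0.0513).

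Of the 8 rises of this set, 5 belonged to one metabolic route, the supply and chain elongation of methionine that starts aliphatic glucosinolate synthesis. These sulfur-rich defence compounds of the cabbage family are stored intact and are cleaved by myrosinases when tissue is damaged. BCAT4, the aminotransferase that takes methionine into chain elongation, stood at 3.41, 5.56 and 5.35 CPM in wild type and at 73.8, 75.0 and 66.5 CPM in er erl2 (log2 fold change 3.90, SE 0.15, adjusted p = 4.05e-09). MAM1, the condensing enzyme of the elongation cycle, went from 1.90, 1.73 and 1.19 CPM to 13.2, 9.44 and 7.55 CPM (log2 fold change 2.65, SE 0.41, adjusted p = 0.00129). IPMI2, an isopropylmalate isomerase subunit, rose from 2.46, 2.28 and 3.65 CPM to 31.4, 28.1 and 26.4 CPM (log2 fold change 3.34, SE 0.20, adjusted p = 2.41e-07). IMD1, the dehydrogenase that closes the cycle, rose from 16.3, 12.04 and 11.7 CPM to 101, 98.6 and 84.5 CPM (log2 fold change 2.83, SE 0.15, adjusted p = 1.06e-07). The fifth, AK3, encodes an aspartate kinase at the entry to methionine synthesis and went from 2.84, 0.73 and 1.87 CPM to 37.6, 39.4 and 28.5 CPM (log2 fold change 4.28, SE 0.38, adjusted p = 3.21e-05). In each of these genes every er erl2 library lay above every wild-type library.

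Over the whole list of aliphatic glucosinolate genes, 22 were listed and 19 tested, of which 12 were higher (against 10.3% of all tested genes) and none lower, with a median log2 fold change of 1.28 beside 0.021 over all tested genes. Under the alternatives that kept the same rule for a call, 11 to 13 were higher, and with a 2-fold minimum change 8. Both cytochromes P450 of the CYP79F pair, which make the aldoxime intermediate, were higher. CYP79F1 rose from 0.474, 0.456 and 0.0849 CPM to 44.9, 40.3 and 25.9 CPM (log2 fold change 6.76, SE 0.58, adjusted p = 2.66e-05), and CYP79F2 from 2.75, 1.55 and 2.12 CPM to 5.69, 5.94 and 6.93 CPM (log2 fold change 1.53, adjusted p = 0.00113). They are neighbouring copies of similar sequence, so reads could be split between them. CYP83A1, which oxidises the aldoxime and lies in the chromosome 4 run, rose from 20.9, 11.7 and 4.16 CPM to 268, 253 and 235 CPM (log2 fold change 4.37, SE 0.47, adjusted p = 0.000249). Of the MYB activators of the pathway, MYB29 rose from 0.474, 0.456 and 0.0849 CPM to 2.89, 2.52 and 2.37 CPM (log2 fold change 2.93, SE 0.49, adjusted p = 0.00116). MYB28 was not called, with 20.19, 23.3 and 23.3 CPM against 17.5, 17.1 and 19.8 CPM (log2 fold change -0.30, adjusted p = 0.188), and MYB76 was too low to be tested. With BCAT4, MAM1 and IPMI2 above, BAT5, IPMI1, BCAT3, GSTU20 and SOT18 made up the rest of the 12, while AK3 and IMD1 were not on the list. Enzymes shared with indolic glucosinolates were not called, among them SUR1 (87.2, 88.7 and 85.3 CPM against 95.1, 114 and 98.6 CPM, adjusted p = 0.132) and GGP1 (131, 133 and 126 CPM against 133, 127 and 137 CPM, adjusted p = 0.813).

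Myrosinase genes moved in opposite directions. TGG2 went from 833, 905 and 738 CPM to 9.08, 9.92 and 12.03 CPM (log2 fold change -6.32, SE 0.24, adjusted p = 1.99e-08), while TGG1 rose from 751, 842 and 696 CPM to 1430, 1340 and 1410 CPM (log2 fold change 0.87, SE 0.17, adjusted p = 0.00536). They lie close together in the longer chromosome 5 run and are similar in sequence, so a shift of reads from one to the other was not tested.

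**Figure D3:**
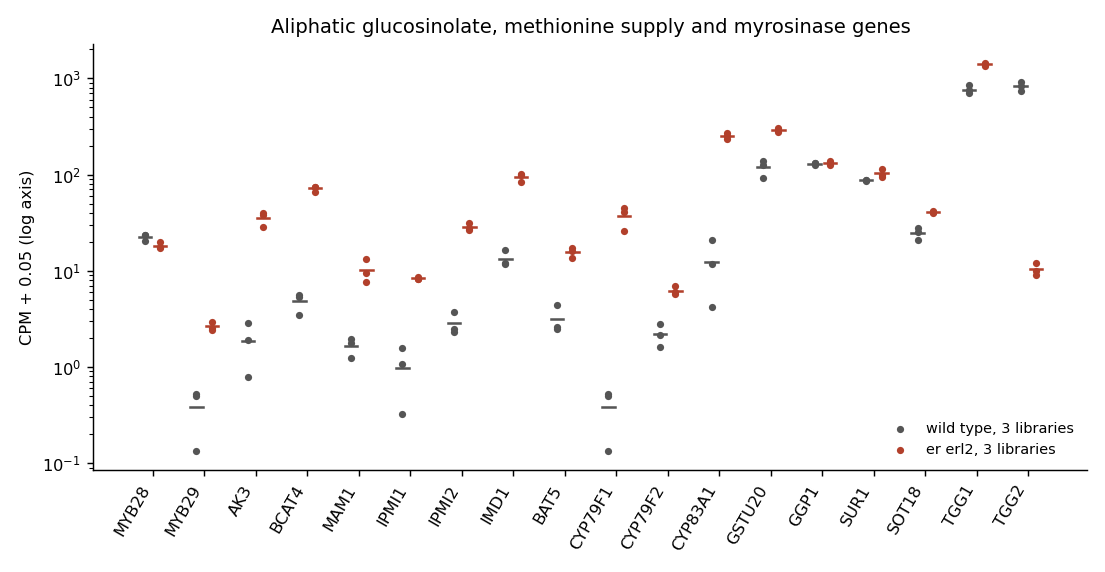
CPM plus 0.05 (y axis, log scale) of genes of aliphatic glucosinolate synthesis, methionine supply and myrosinases (x axis), with 1 point per library, grey for the 3 wild-type and red for the 3 er erl2 libraries, and bars at group means. The er erl2 points lie above the wild-type points from MYB29 to GSTU20, those of GGP1 overlap at 126 to 137 CPM, and TGG1 and TGG2 moved in opposite directions.

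Auxin genes changed in directions that differed between lists. Auxin is sensed by TIR1/AFB receptors that remove Aux/IAA repressors from ARF transcription factors. Of 23 tested Aux/IAA genes, 7 were higher and 2 lower, against 10.3% and 8.44% of all tested genes. Their median log2 fold change was 0.09. The 7 became 4 with either er erl2 replicate 3 or replicate 2 of wild type left out and 3 without wild type replicate 3. IAA1 rose from 19.2, 19.2 and 12.6 CPM to 37.3, 29.6 and 43.2 CPM (log2 fold change 1.11, SE 0.16, adjusted p = 0.000537). IAA28, which lies in a run, went from 75.4, 69.9 and 62.2 CPM to 36.2, 35.9 and 42.8 CPM (log2 fold change -0.85, SE 0.12, adjusted p = 0.000409). Of 30 tested SAUR genes, early auxin-responsive growth genes, 6 were lower and none higher, against 8.44% lower among all tested genes, and the median was -0.02. AT1G75580 had the largest change of them, from 4.36, 6.11 and 4.84 CPM to 0.0825, 0.163 and 0.878 CPM (log2 fold change -3.77, SE 0.50, adjusted p = 0.0002). ARF genes had 5 higher and 1 lower of 14, and auxin carriers 4 higher and 1 lower of 14. The 5 and the 4 each became 2 without er erl2 replicate 3. Among the carriers, the influx carrier gene LAX2 rose from 128, 110 and 83.0 CPM to 193, 178 and 189 CPM (log2 fold change 0.80, SE 0.13, adjusted p = 0.00152). All er erl2 libraries lay above all wild-type libraries. YUC5, an auxin synthesis gene in a run, went from 2.46, 4.47 and 2.97 CPM to 1.07, 1.06 and 0.614 CPM (log2 fold change -1.83, adjusted p = 0.00304).

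In cytokinin metabolism 5 of 17 tested genes were higher and none lower, against 10.3% higher and 8.44% lower among all tested genes. The 5 became 3 without er erl2 replicate 1 or 2, 2 without wild type replicate 2 and 1 with either er erl2 replicate 3 or replicate 3 of wild type left out. CKX7, a cytokinin-degrading oxidase, was called in each of these fits and rose from 54.1, 56.1 and 46.8 CPM to 94.3, 98.01 and 99.5 CPM (log2 fold change 0.89, SE 0.076, adjusted p = 3.99e-06). The gibberellin-regulated peptide gene GASA6 rose from 2.09, 2.65 and 1.44 CPM to 8.5, 9.68 and 10.97 CPM (log2 fold change 2.24, SE 0.26, adjusted p = 6.19e-05), while the gibberellin receptor gene GID1A went from 143, 152 and 119 CPM to 88.6, 95.5 and 90.9 CPM (log2 fold change -0.59, SE 0.09, adjusted p = 0.000595). The brassinosteroid synthesis gene CPD rose from 22.8, 23.7 and 16.3 CPM to 37.0, 38.1 and 37.9 CPM (log2 fold change 0.85, SE 0.11, adjusted p = 0.000189). For none of these did the groups overlap. Salicylic acid genes were mixed, with 6 higher and 3 lower of 22 (40.9% called, against 18.8% of all tested genes). The lower count was 7 when the 6 libraries were fitted alone and 6 with DESeq2. NIMIN1, which binds the salicylic acid regulator NPR1, rose from 3.98, 4.93 and 3.14 CPM to 9.66, 8.46 and 12.2 CPM (log2 fold change 1.33, SE 0.21, adjusted p = 0.000748). Of 37 jasmonate genes 5 were lower and 1 higher (16.2% called, against 18.8% of all tested genes). Only 8 of the 37 had a log2 fold change above 0, and the median was -0.31. The summed level of the list was 5888 to 6464 CPM in wild type and 4457 to 5019 CPM in er erl2. The 5 lower calls became 13 when the 6 libraries were fitted alone, 9 with DESeq2, and 2 without any one of er erl2 replicates 1, 2 and 3 and wild type replicates 1 and 3. The 1 higher gene, VSP1, a vegetative storage protein, rose from 51.8, 63.8 and 47.4 CPM to 184, 191 and 178 CPM (log2 fold change 1.76, SE 0.17, adjusted p = 4.85e-05), and it has a close copy, VSP2.

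Secondary wall genes were more often called higher than lower in er erl2, but the calls rested on few libraries. Of 19 tested genes of secondary wall cellulose and xylan synthesis, 11 were higher and none lower, against 10.3% higher among all tested genes, with a median log2 fold change of 0.63, and er erl2 replicate 3 lay near the wild-type libraries in many of them. The cellulose synthase gene IRX3 is an example that was not called, with 323, 245 and 343 CPM in wild type and 501, 562 and 292 CPM in er erl2 (log2 fold change 0.57, adjusted p = 0.0826). The 11 became 2 when the 6 libraries were fitted alone, 5 with no filter on low counts, 3 with either er erl2 replicate 1 or replicate 1 of wild type left out, 2 with either er erl2 replicate 2 or replicate 2 of wild type left out, and 4 without wild type replicate 3. Without er erl2 replicate 3 the count was 16. GAUT12, a glycosyltransferase needed for xylan, was called in each fit other than the 2-fold minimum and rose from 71.0, 60.9 and 63.9 CPM to 134, 149 and 87.7 CPM (log2 fold change 0.92, SE 0.16, adjusted p = 0.0019). Lignin monomer synthesis showed 1 higher gene of 22 (4.55%), or 4 without er erl2 replicate 3 and 2 without wild type replicate 3. It was PAL4, one of several phenylalanine ammonia-lyases, from 10.7, 14.3 and 13.7 CPM to 47.4, 62.7 and 32.5 CPM (log2 fold change 1.88, SE 0.20, adjusted p = 7.83e-05). Laccases, which oxidise monolignols in the wall, had 8 higher of 14 (57.1%, against 10.3% of all tested genes). The 8 became 4 without er erl2 replicate 2, wild type replicate 1 or wild type replicate 2 and 5 without wild type replicate 3. LAC2 was called in every alternative other than the 2-fold minimum and rose from 85.1, 91.8 and 68.3 CPM to 146, 168 and 163 CPM (log2 fold change 0.96, adjusted p = 0.00358). Cambium markers also had more higher than lower calls, 10 and 1 of 17 (64.7% called, against 18.8% of all tested genes). The 10 became 7 without er erl2 replicate 3. The summed level of the cambium markers was 1695 to 1703 CPM in wild type and 2004 to 2102 CPM in er erl2. Secondary wall cellulose and xylan genes spread more, with 1897 to 2386 CPM in wild type and 2103 to 3963 CPM in er erl2. The part of the cambium markers in the wall values was not tested. In bulk tissue, more cells of a type and more RNA per cell cannot be told apart.

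Other wall groups divided by direction. Arabinogalactan protein genes, which encode glycoproteins of the cell surface, had 11 higher and none lower of 26 (42.3% called, against 18.8% of all tested genes). Their summed level was 1608 to 2586 CPM in wild type and 3603 to 4199 CPM in er erl2. The 11 became 7 without er erl2 replicate 2 and 5 without wild type replicate 2. Genes of the pectin methylesterase and invertase inhibitor superfamily had 3 higher and 5 lower of 37, a called share (21.6%) near that of all tested genes. AT5G62360 of that superfamily went from 13.8, 17.2 and 13.0 CPM to 2.15, 2.28 and 4.65 CPM (log2 fold change -2.29, SE 0.25, adjusted p = 5.12e-05). Of 45 pectin lyase-like genes, whose family includes polygalacturonases and pectate lyases, 10 were lower and 3 higher (28.9% called). The 10 became 6 with either er erl2 replicate 1 or replicate 3 of wild type left out, and the 3 became 1 without er erl2 replicate 2. AT5G19730 of that group went from 37.9, 51.5 and 46.2 CPM to 6.02, 8.22 and 10.01 CPM (log2 fold change -2.49, SE 0.19, adjusted p = 2.85e-06). The expansin gene EXPA17 went from 23.4, 25.6 and 32.9 CPM to 12.7, 14.6 and 16.8 CPM (log2 fold change -0.90, SE 0.18, adjusted p = 0.00564), whereas EXPA6 rose from 316, 328 and 256 CPM to 368, 424 and 406 CPM (log2 fold change 0.41, SE 0.095, adjusted p = 0.00939). Suberin and cutin genes had 8 higher and none lower of 27 (29.6% called). The 8 became 4 without er erl2 replicate 1, er erl2 replicate 3 or wild type replicate 3 and 5 without wild type replicate 1. KCS20, a fatty acid elongase gene in a run, rose from 7.58, 7.94 and 8.07 CPM to 22.4, 23.02 and 23.9 CPM (log2 fold change 1.55, SE 0.082, adjusted p = 4.79e-08), and LACS2, an acyl-CoA synthetase of cutin synthesis, from 9.95, 10.3 and 8.24 CPM to 17.1, 20.17 and 21.8 CPM (log2 fold change 1.05, SE 0.20, adjusted p = 0.00301).

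Outside the NLR family and aliphatic glucosinolates, defence genes did not move as one group. Indolic glucosinolate and camalexin genes had 3 higher and 5 lower of 28 (28.6% called), with a median log2 fold change of -0.32. The 5 became 10 when the 6 libraries were fitted alone. Of 37 genes of pattern-triggered immunity 2 were called (5.41%, against 18.8% of all tested genes). Both were lower, and 4 were lower when the 6 libraries were fitted alone. MKK9, a MAP kinase kinase, went from 73.9, 75.0 and 66.6 CPM to 28.9, 29.0 and 28.4 CPM (log2 fold change -1.32, SE 0.13, adjusted p = 1.71e-05), and PEPR1, the receptor of the Pep1 danger peptide, from 169, 142 and 161 CPM to 114, 94.1 and 101 CPM (log2 fold change -0.61, SE 0.12, adjusted p = 0.00494). The antifungal defensin gene PDF1.2, in a run, rose from 0.284, 0 and 0.679 CPM to 13.0, 39.4 and 7.90 CPM (log2 fold change 5.89, SE 1.1, adjusted p = 0.00449), with a wide spread among the er erl2 libraries. Defensin genes have close copies. Of 97 tested lectin receptor kinase and lectin genes 20 were called (20.6%, against 18.8% of all tested genes), 11 higher and 9 lower, with a median log2 fold change of 0.006. AT1G78860 rose from 5.21, 6.38 and 6.79 CPM to 81.6, 80.8 and 92.7 CPM (log2 fold change 3.79, SE 0.38, adjusted p = 0.000109) and AT5G60270 from 0.569, 0.456 and 0.679 CPM to 13.7, 10.3 and 12.9 CPM (log2 fold change 4.41, SE 0.32, adjusted p = 8.95e-07), while AT1G70130 went from 8.72, 8.66 and 10.4 CPM to 1.07, 0.732 and 1.14 CPM (log2 fold change -3.23, SE 0.52, adjusted p = 0.0015). Lupeol synthase LUP1 went from 26.1, 31.8 and 28.2 CPM to 11.1, 8.30 and 7.11 CPM (log2 fold change -1.70, SE 0.20, adjusted p = 0.000143). The beta-glucosidase gene BGLU18 went from 4370, 4070 and 3580 CPM to 2690, 2500 and 2050 CPM (log2 fold change -0.73, SE 0.14, adjusted p = 0.00377).

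Transport genes changed in both directions. Aquaporins, the water channels of plasma membrane and vacuole, had 6 higher and none lower of 22 (27.3% called, against 18.8% of all tested genes). The 6 became 3 without er erl2 replicate 2, er erl2 replicate 3 or wild type replicate 2 and 2 without wild type replicate 1 or 3. PIP2A rose from 265, 255 and 260 CPM to 449, 448 and 434 CPM (log2 fold change 0.77, SE 0.073, adjusted p = 1.14e-05), and PIP3 from 647, 656 and 579 CPM to 860, 870 and 839 CPM (log2 fold change 0.45, SE 0.066, adjusted p = 0.000471). Both were called in every fit that left out a library. Of 5 tested SWEET sugar transporters 2 were lower, the vacuolar fructose carrier gene SWEET17 with 134, 124 and 108 CPM against 80.1, 93.0 and 87.4 CPM (log2 fold change -0.49, SE 0.083, adjusted p = 0.00122) and SWEET13 with 2.56, 5.75 and 1.87 CPM against 0.908, 0.732 and 0.263 CPM (log2 fold change -2.38, SE 0.48, adjusted p = 0.00429). ABC transporters of family G, several of which export wax and cutin lipids, had 7 higher and 1 lower of 32 (25.0% called). ABCG12, a wax exporter, rose from 1.61, 0.821 and 1.36 CPM to 4.70, 3.33 and 3.51 CPM (log2 fold change 1.60, SE 0.29, adjusted p = 0.00198). ABCB19, an auxin exporter gene in a run, rose from 37.4, 44.9 and 38.5 CPM to 66.8, 81.2 and 72.9 CPM (log2 fold change 0.87, SE 0.096, adjusted p = 4.08e-05). The amino acid exporter gene UMAMIT29 rose from 11.9, 12.4 and 10.02 CPM to 26.7, 35.0 and 27.1 CPM (log2 fold change 1.37, SE 0.15, adjusted p = 2.98e-05). NAS1, which makes the metal chelator nicotianamine, rose from 0.379, 0.912 and 0.509 CPM to 2.48, 3.58 and 4.65 CPM (log2 fold change 2.55, SE 0.42, adjusted p = 0.000979). The sulfate transporter gene SULTR2;1 went from 323, 360 and 260 CPM to 208, 208 and 231 CPM (log2 fold change -0.54, SE 0.11, adjusted p = 0.00449). Among genes of sucrose synthases, which split sucrose for use in sink tissue, SUS1 rose from 446, 440 and 461 CPM to 1040, 1090 and 692 CPM (log2 fold change 1.07, SE 0.18, adjusted p = 0.00233) and SUS4, in a run, from 309, 360 and 300 CPM to 776, 790 and 720 CPM (log2 fold change 1.24, SE 0.15, adjusted p = 0.00026).

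The R2R3 MYB, NAC and WRKY families of transcription factors held calls in both directions, with called shares near that of all tested genes. R2R3 MYB factors had 6 higher and 6 lower of 71 (16.9% called), and NAC factors 8 higher and 5 lower of 78 (16.7%). WRKY factors had 4 higher and 8 lower of 58 (20.7%), against 18.8% called among all tested genes. Leaving out single libraries lowered the NAC higher count to 5 without wild type replicate 3, the MYB higher count to 3 with either er erl2 replicate 1 or replicate 3 of wild type left out, and the WRKY lower count to 5 with either er erl2 replicate 2 or replicate 3 of wild type left out. The NAC lower count was 2 without er erl2 replicate 2 or 3 or wild type replicate 1 or 3, 3 without er erl2 replicate 1 and 3 in the 6 libraries alone. The WRKY higher count was 2 without er erl2 replicate 1 or 3 or wild type replicate 2 and 1 without wild type replicate 3. NAC069 went from 14.7, 17.42 and 19.5 CPM to 8.66, 6.59 and 6.50 CPM (log2 fold change -1.25, SE 0.15, adjusted p = 7.1e-05), while its neighbour on chromosome 4, the membrane-bound factor gene NTM1, rose from 19.3, 11.7 and 17.5 CPM to 36.4, 35.7 and 36.8 CPM (log2 fold change 1.17, SE 0.19, adjusted p = 0.00143). The library kit does not mark strand, and neighbouring similar genes may share reads. WRKY36 went from 3.13, 2.46 and 3.74 CPM to 0.825, 1.55 and 0.966 CPM (log2 fold change -1.47, SE 0.30, adjusted p = 0.00476).

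Homeobox factors had 11 higher and 1 lower of 47 (25.5% called, against 18.8% of all tested genes). The 11 became 6 without er erl2 replicate 1 and 7 without er erl2 replicate 2, wild type replicate 1 or wild type replicate 3. HB17 of the shade-related class II HD-ZIP factors rose from 5.78, 4.56 and 4.93 CPM to 11.7, 8.62 and 10.1 CPM (log2 fold change 0.99, SE 0.16, adjusted p = 0.000998). BLH2, a BEL1-like partner of KNOX proteins, rose from 5.02, 3.101 and 4.76 CPM to 13.0, 11.1 and 6.67 CPM (log2 fold change 1.26, SE 0.27, adjusted p = 0.00613). ERF and DREB factors, which include ethylene and cold regulators, had 5 lower and none higher of 60, a lower share near the 8.44% of all tested genes. That count became 14 when the 6 libraries were fitted alone, 10 with DESeq2 and 3 with either er erl2 replicate 3 or replicate 1 of wild type left out. CBF4 was one of them, with 6.16, 4.104 and 3.57 CPM against 2.39, 1.46 and 1.58 CPM (log2 fold change -1.34, SE 0.27, adjusted p = 0.0048). BBX29, a B-box factor of light responses, went from 19.0, 16.4 and 16.1 CPM to 7.18, 6.67 and 6.76 CPM (log2 fold change -1.32, SE 0.16, adjusted p = 0.000119). TFL1, the repressor that keeps shoot meristems from flowering, had 212 reads over the wild-type libraries and 2 over the er erl2 libraries (ratio 114, 95% counting interval 31.2 to 948). LBD26, the first gene of the chromosome 3 run, fell from 3.98, 2.83 and 2.46 CPM to no read, at least 36.6-fold lower. Among histone genes, AT5G10400 went from 29.3, 24.1 and 30.8 CPM to 2.39, 2.85 and 3.16 CPM (log2 fold change -3.32, SE 0.18, adjusted p = 5.93e-08), while its neighbour AT5G10390 rose from a mean of 15.9 ± 1.55 CPM to 29.3 ± 4.78 CPM (SD, n = 3, edgeR) (log2 fold change 0.89, SE 0.13, adjusted p = 0.000342). Histone genes are near-identical copies, so reads may be divided between them.

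**Figure D4:**
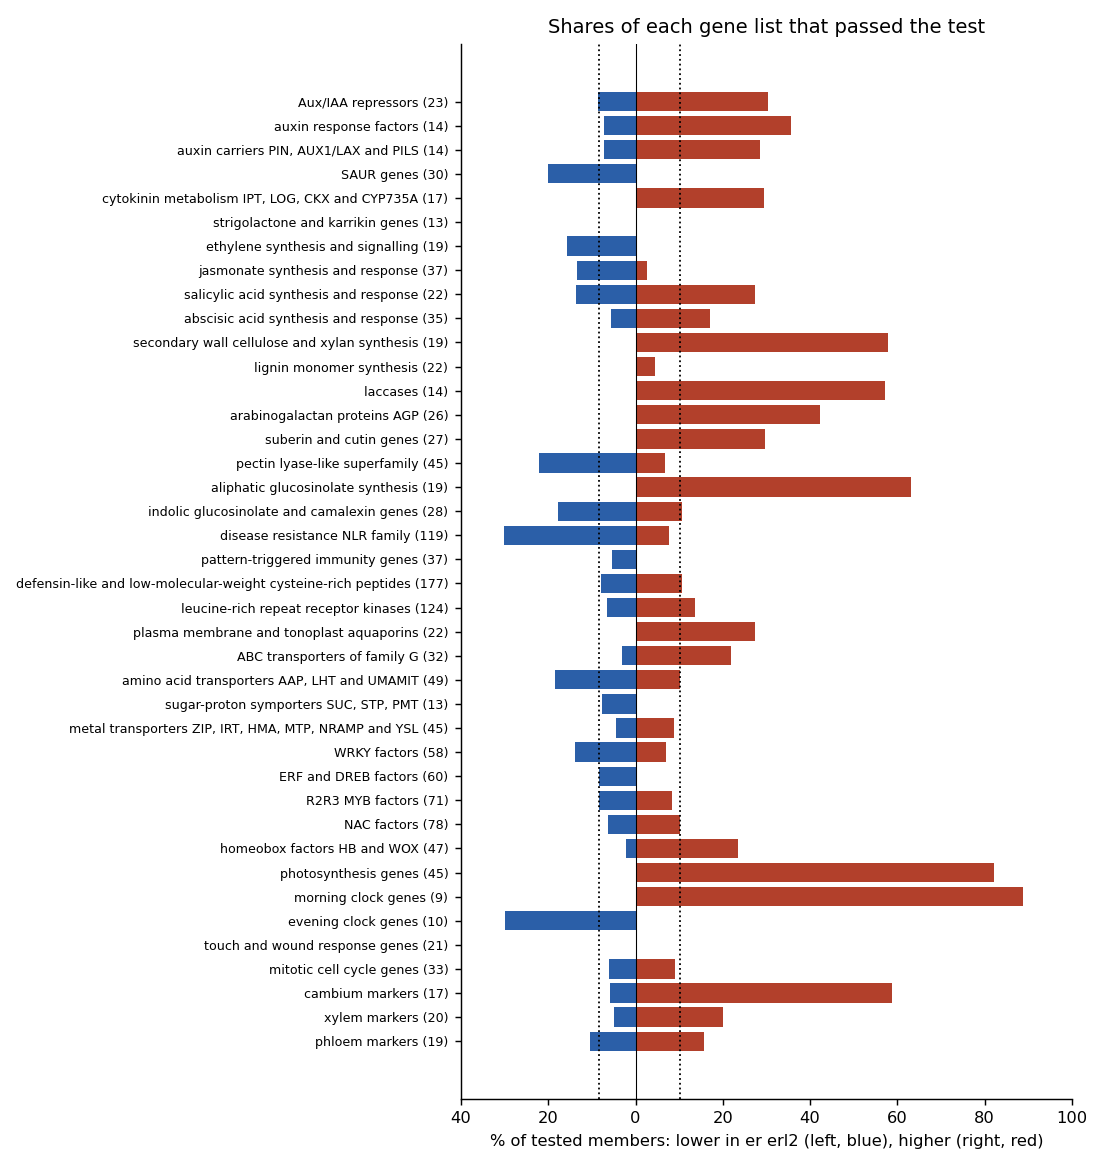
Share of the tested members of selected gene lists that was called lower (blue, to the left) or higher (red, to the right) in er erl2, in percent (x axis), with the number of tested members after each list name (y axis). Dotted lines mark the shares among all tested genes, 8.44% lower and 10.3% higher; among the lists drawn, bars of photosynthesis, morning clock and aliphatic glucosinolate genes reach farthest to the right and those of the NLR family and evening clock genes farthest to the left.

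Green tissue and clock genes differed between the groups as well, and they bear on any gene with a daily rhythm. Photosynthesis genes had 37 higher of 45 tested (82.2%, against 10.3% of all tested genes) and none lower. Their summed level was 3695 to 5042 CPM in wild type and 7673 to 8543 CPM in er erl2. FNR2, a ferredoxin reductase of the photosynthetic electron chain, was not on that list. It rose from 6.26, 6.84 and 3.74 CPM to 16.4, 14.4 and 16.1 CPM (log2 fold change 1.48, SE 0.22, adjusted p = 0.000619). Of 9 morning clock genes 8 were higher, or 5 with either er erl2 replicate 1 or replicate 2 of wild type left out, and of 10 tested evening clock genes 3 were lower and none higher. The clock couples morning repressors such as CCA1 and LHY with evening genes that they repress. CCA1 rose from 14.03, 9.39 and 14.1 CPM to 45.1, 41.1 and 47.7 CPM (log2 fold change 1.83, SE 0.15, adjusted p = 2.31e-06) and LHY from 33.5, 36.1 and 36.8 CPM to 78.4, 71.5 and 80.8 CPM (log2 fold change 1.12, SE 0.069, adjusted p = 2.02e-07). For both, all er erl2 libraries were above all wild-type libraries. PCL1, also known as LUX, a subunit of the evening complex, went from 37.8, 36.4 and 32.1 CPM to 27.8, 27.3 and 26.4 CPM (log2 fold change -0.38, SE 0.087, adjusted p = 0.00883). TOC1 went from 77.4, 75.6 and 71.8 CPM to 62.6, 64.6 and 64.6 CPM (log2 fold change -0.23, SE 0.063, adjusted p = 0.024), a call lost without er erl2 replicate 1 (adjusted p = 0.0736), er erl2 replicate 2 (0.0537), wild type replicate 1 (0.0783) or wild type replicate 2 (0.0645). GI, a regulator of flowering time and the clock, went from 66.8, 74.3 and 80.8 CPM to 62.6, 58.6 and 58.5 CPM (log2 fold change -0.30, SE 0.074, adjusted p = 0.0125), a call lost without wild type replicate 3 (adjusted p = 0.053). Collection time is not in the labels, and its part in these values was not tested.

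CCA1 and LHY are known to bind the evening element AAAATATCT, and the windows of 300 bases before the annotated gene starts of TOC1 and PCL1 are shown because both genes were called lower and both hold it. GI, the third evening gene called lower, has no match in its window. The windows of PRR5, BOA and FKF1 also hold the element, and these genes were not called (adjusted p = 0.123, 0.499 and 0.792). The sequences are from the RefSeq TAIR10.1 assembly, read 5′ to 3′ on the plus strand, which is the strand of both genes, and capitals mark the evening element on either strand. TOC1 lies at chr5:24674663-24674962 and PCL1 at chr3:17182742-17183041.
TOC1: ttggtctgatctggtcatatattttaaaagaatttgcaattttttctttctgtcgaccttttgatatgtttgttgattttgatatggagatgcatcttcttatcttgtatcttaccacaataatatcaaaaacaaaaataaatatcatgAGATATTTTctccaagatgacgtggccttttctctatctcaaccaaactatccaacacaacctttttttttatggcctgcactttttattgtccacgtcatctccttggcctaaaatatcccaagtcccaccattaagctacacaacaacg
PCL1: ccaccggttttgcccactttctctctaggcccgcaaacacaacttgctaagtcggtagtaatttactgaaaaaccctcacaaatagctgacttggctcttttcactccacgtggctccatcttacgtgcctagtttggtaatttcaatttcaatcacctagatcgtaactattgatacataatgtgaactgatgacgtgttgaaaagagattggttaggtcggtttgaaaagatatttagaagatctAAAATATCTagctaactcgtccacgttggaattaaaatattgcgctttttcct
Searched on both strands in windows of the same length, the 9 letters occurred in 5 of 10 evening clock genes, in none of 9 morning clock genes and in 542 of 18820 tested genes (2.88%). Among genes called lower, 61 of 1582 windows held them (3.86%), and among genes called higher 44 of 1962 (2.24%). A match of letters is a description of the window and no evidence of binding in these samples.

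The er erl2 mutations could also be compared in the absence of PXY family function, in the quintuple against the triple mutant, a comparison that shares no library with er erl2 against wild type. In that background 2016 genes (10.5%) were called, 975 higher (5.07%) and 1041 lower (5.41%). Aliphatic glucosinolate genes were higher there too, 12 of 19 with a median log2 fold change of 0.80, and 8 were higher in both comparisons. Their summed level was 958.9 to 1060 CPM in the triple mutant, already above the 501 to 585.8 CPM of wild type. The sizes differed: for BCAT4 the change was 0.97 (adjusted p = 0.00028) against 3.90 in the wild-type background, and the difference of -2.93 had an adjusted p of 1.28e-06 in the interaction test. MYB29 changed by 2.75 (adjusted p = 0.00117) and 2.93, with a difference of -0.18 that was not called (adjusted p = 0.893). Of the 119 NLR genes 12.6% were called in the quintuple against the triple mutant, near the 10.5% of all tested genes, with 10 higher and 5 lower. Of the 5 lower, 2 were among the 36 lower in er erl2. RPP1 changed by 0.04 there and DR4 by -0.26, and both differences from er erl2 were called (adjusted p = 1.14e-10 and 9.07e-08). DI21 dropped by a similar amount in both backgrounds, -3.37 (adjusted p = 2.04e-05) and -3.09. AT5G05400, which had no read in er erl2, had log2 fold changes of -10.19 and -10.29. Where a group has no read, such a size depends on the fitted prior count and is no bound. Photosynthesis genes had 3 higher of 45 (6.67%, near the 5.07% higher among all tested genes) with a median of 0.22. The interaction was called for 17 of these 45 genes, against 9.45% of all tested genes. Their summed level was 11080 to 14490 CPM in the triple and 11370 to 17590 CPM in the quintuple mutant. The triple mutant thus lay above both wild type (3695 to 5042 CPM) and er erl2 (7673 to 8543 CPM). Morning clock genes had 5 higher of 9, all 5 higher in both comparisons.

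**Figure D5:**
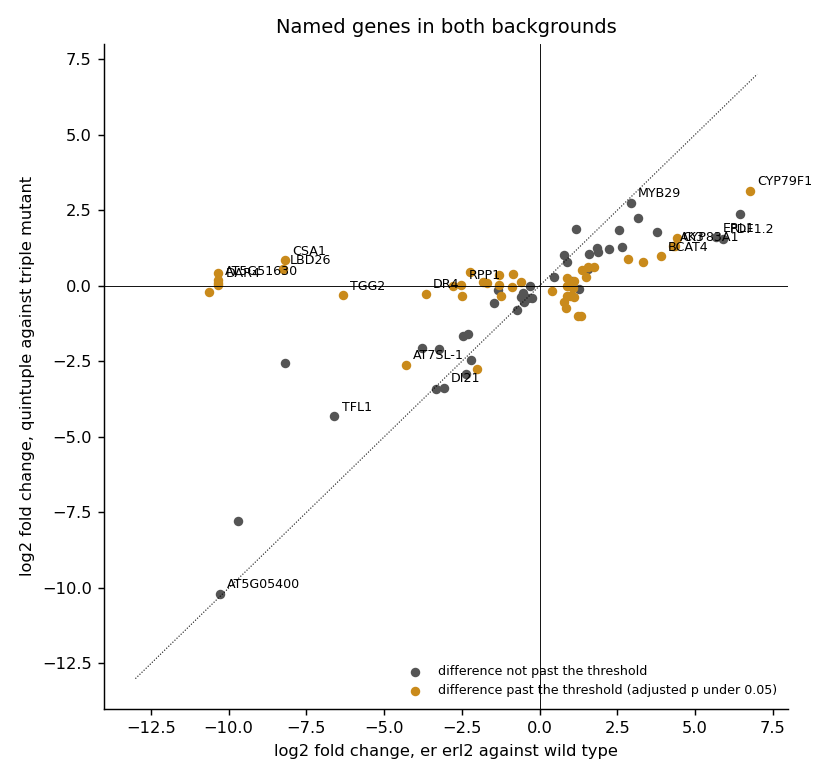
Log2 fold change in the quintuple against the triple mutant (y axis) against that in er erl2 against wild type (x axis) for genes named by rule in the text that were called in er erl2, each a point, orange where the difference between the effects was called at an adjusted p under 0.05 and grey where not; the dotted line marks equal values. Of the 87 genes, 40 were called in the same direction in both backgrounds and 6 in opposite directions, and the difference was called for 47, with 46 of them against the er erl2 effect. Over all tested genes the difference was called for 9.45% (4.65% positive, 4.8% negative), a share that cannot be read against the 47, since the genes were named for their er erl2 effect, which the difference subtracts.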

How the data were processed

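The 12 libraries were prepared from Trizol-extracted total RNA with poly-T selection and a NEBNext Ultra kit, per the labels' protocols. The submitters' processing notes name HISAT2 2.0.5, featureCounts 1.5.0-p3 and TAIR10. The values used were the deposited raw counts per gene, which the authors made without normalization. From them, edgeR 4.0.16 in R 4.3.3 was run with its filter on low counts, TMM scaling, a term per genotype over all 12 libraries and the robust quasi-likelihood test. P-values were adjusted by Benjamini-Hochberg over 19236 tested genes. CPM were computed with the TMM-scaled library sizes of that fit. Alternatives were DESeq2 1.42.0, other scalings, filters and fits, and leaving out each library. Counting intervals and the floor of 3 reads over a group cover counting error only. P-values measure the spread between libraries.

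Members and lists were chosen with earlier results of these data known; 25 of the 129 lists, built from product names, were added after the files were read. Named genes were the receptors, the 8 largest rises and falls outside runs with a symbol, a mean of at least 5 CPM and at least 0.5 CPM in both groups, up to 3 called members per list with a mean of at least 1 CPM, and up to 2 genes per run with no read in one group, all with groups that did not overlap. IRX3, SUR1, GGP1, MYB28, CYP79F2 and LAC2 were named after their values were seen. Of 32833 loci, 285 had no entry in the RefSeq table used for symbols. Promoter windows came from TAIR10.1. The script was tested on simulated data.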

Additional observations from a re-analysis of the deposited data

Results flagged for a closer look

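The genes below are flagged because the er erl2 effect differed between backgrounds: the change in the quintuple against the triple mutant minus the change in er erl2 against wild type was tested as an interaction in the edgeR fit, and its adjusted p was under 0.05. This held for 47 of the 87 genes of the text that were named by rule and called. They were named for their er erl2 effect, which the difference subtracts, and 46 of the 47 ran against that effect, so the count says nothing about these genes as a group. For genes without a read in one group the size depends on the fitted prior count and is no bound. All values are log2 differences.

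The log2 difference was positive, with 1.69 for AT7SL-1, 3.40 for DR4, 2.75 for HSP18.2, 2.56 for RPP1, 2.70 for FLS2 and 1.24 for IAA28. Further positive values were 1.96 for YUC5, 0.87 for EXPA17, 1.33 for MKK9, 0.72 for PEPR1, 10.44 for DAR4 and 9.03 for CSA1. In the same direction stood 5.99 for TGG2, 1.78 for LUP1, 0.90 for NAC069, 8.80 for LBD26, 1.66 for BBX29 and 2.16 for AT5G19730. Positive as well were 10.55 for AT5G51630, 10.36 for AT5G36930, 10.43 for AT3G27990 and 10.79 for AT5G44572.

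A negative log2 difference was found, -0.74 for ER, -2.97 for AK3, -2.93 for BCAT4, -2.54 for IPMI2, -1.94 for IMD1 and -1.47 for IAA1. Further negative values were -1.33 for LAX2, -0.91 for CKX7, -1.59 for CPD, -1.15 for VSP1 and -2.34 for NIMIN1. In that direction stood -0.94 for GAUT12, -0.60 for EXPA6, -0.93 for KCS20, -3.63 for CYP79F1, -3.06 for CYP83A1 and -1.20 for TGG1. Negative as well were -0.86 for UMAMIT29, -0.62 for ABCB19, -1.35 for HB17, -1.19 for FNR2, -2.23 for SUS4 and -1.15 for SUS1. The difference also lay below 0 with -2.84 for AT5G60270 and -0.95 for LHY.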

How the results depend on the processing

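With a 2-fold minimum change the test called 319 genes, 123 higher and 196 lower. With 1 library left out, the called genes numbered 2578 to 2763, the higher 1276 to 1473 (lowest without er erl2 replicate 3) and the lower 1179 to 1302. DESeq2 called 3717 genes, library totals alone 3553 and no filter on low counts 3331. When the 6 compared libraries were fitted alone, 3514 were called, 1642 higher and 1872 lower, so the majority changed side. With a replicate block 3276 genes were called, 1792 higher and 1484 lower, and with the 6 libraries alone and the block 2959, 1369 higher and 1590 lower. Replicate numbers do not pair the libraries: deviations of same-numbered libraries correlated at -0.077, 0.0146 and -0.0264. Of 305 named genes tested, 192 kept their call in every alternative other than the 2-fold minimum and 113 lost it in at least 1; none of them changed sign. The secondary wall count of 11 was 7 with a replicate block and 1 with the 6 libraries alone and the block. Depth limits genes near the floor, ERL2 among them.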
